A study of Mus musculus with 9 samples.

Results

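Guanylate-binding proteins (GBPs) and immunity-related GTPases (IRGs) are the large GTPases that mouse cells make in response to interferon, and 10 of them were followed here through the long-term hematopoietic stem cells (LT-HSCs) of PI3K-deficient mice. The 10 genes were Gbp2, Gbp3, Gbp4, Gbp6, Gbp7, Gbp9, Igtp, Irgm1, Irgm2 and Iigp1, matched by symbol among the 47643 genes of the count table. They were chosen by name with their values in these libraries known, those of TKO against δKO cells above all, so every comparison of the genotypes below is a description and its test results support nothing. All 10 had enough counts to be kept among the 18205 genes analyzed, as were 12 of the 15 other GBP and IRG genes in the table.

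Donor bone marrow came from C57BL/6 mice of 3 genotypes and was transplanted into lethally irradiated B6.SJL recipients, which were 6 to 8 weeks old. TKO donors carried Pik3ca lox/lox together with Pik3cb lox/lox, were Pik3cd-/- and had the Mx1-Cre transgene. δKO donors, their littermates, had the same Pik3ca lox/lox, Pik3cb lox/lox and Pik3cd-/- alleles without Cre, and WT donors were WT with Mx1-Cre. Every recipient received pIpC (250 μg, 2 injections, 48 hours apart), and donor-derived LT-HSCs, gated as Lin-, positive for cKit and Sca1, Flk2-, CD48- and CD150+, were sorted 4 weeks later. RNA was amplified as cDNA with the Ovation V2 system, and 3 libraries were sequenced per genotype, 9 in all. The germline loss of Pik3cd was thus common to TKO and δKO cells, and Cre was common to TKO and WT cells. The Mx1 promoter that drives Cre is itself interferon-inducible, and pIpC is a synthetic double-stranded RNA that elicits interferon, so all 3 groups had met an interferon stimulus before the sort. No group without pIpC was included. The marrow of the 7 recipients in a group was pooled before staining according to the methods, whereas the labels list separate replicates, so the p-values below measure only the spread between these libraries, whose origin in separate animals or cultures is not given.

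The libraries held 31300343 to 60386097 counts and 18180 to 22703 genes with at least 1 count. A δKO library whose number in the count table is in no label is called the unnumbered δKO library. It had 18500 detected genes and δKO replicate 1 had 18180, the fewest of the 9. Values are CPM, the count of a gene relative to the TMM-scaled size of its library. Pik3cb measured 25.5 to 33.9 CPM in TKO libraries, 44.6 to 63.6 in WT and 33.2 to 101 in δKO. Pik3ca overlapped between all groups (41.3 to 88.2 CPM), and Pik3cd was lower in every TKO and δKO library (38.5 to 91.2 CPM) than in every WT library (98.2 to 139 CPM). The counts cover whole genes and do not show the loss of single exons. Xist, which female cells express, measured 32.1, 5340 and 45.6 CPM in WT, 6393, 4910 and 59.5 in δKO and 4162, 3227 and 36.5 in TKO, so the libraries of a genotype were not equal parts of one pool of cells.

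GBPs and IRGs are dynamin-related GTPases induced chiefly by interferon-γ, with IRF1 among the factors involved, and also by type I interferon. They assemble on the membrane around intracellular bacteria and parasites and break it open. IRGs fall into effectors such as Iigp1 (Irga6) and Tgtp (Irgb6), which attack that membrane, and regulators, namely Irgm1, Irgm2 and Igtp (Irgm3), which hold the effectors inactive on the cell's own membranes. The Atg8 conjugation machinery of autophagy is needed to direct both families to their targets. In bone marrow, interferon-γ drives quiescent HSCs into division, and Irgm1 is known for its requirement in HSC maintenance.

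Promoter sequences are shown because the same blocks of letters, of the kind found in interferon-responsive promoters, recur in members on different chromosomes. Promoter entries of RefSeq (GRCm38.p6, the mm10 build, 250 bases before to 50 after the start) were found for 6 of the 10 members, Gbp2, Gbp3, Gbp7, Igtp, Irgm1 and Irgm2. Gbp4, Gbp6, Gbp9 and Iigp1 had no entry in that table. Of the members shown, Gbp2, Gbp3 and Gbp7 lie on chromosome 3 and the others on chromosome 11. The stretches below end no later than the RefSeq start and leave out annotated exons, except that the site of Gbp2 and that of Irgm1 lie in a first exon of GENCODE M21 and are given as 30 bases. Positions are chr3:142620594-142620623, chr3:142559934-142560025 and chr3:142530226-142530335 on the plus strand, chr11:58199446-58199555 and chr11:58214867-58214976 on the plus strand, and chr11:48871428-48871457, chr11:48992259-48992356 and chr11:49064213-49064322 on the minus strand. Capitals mark TTCNNNGAA, the palindromic GAS-type block of interferon-γ-responsive promoters, and GAAANNGAAA, the paired GAAA block of IRF and ISRE sites, on either strand. Neighbouring matches can overlap, as in Gbp3 and Irgm1. Tgtp1 and Tgtp2, which are not members, are given for comparison.
Gbp2: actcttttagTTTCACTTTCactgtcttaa
Gbp3: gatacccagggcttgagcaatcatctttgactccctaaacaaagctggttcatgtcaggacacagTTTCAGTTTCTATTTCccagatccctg
Gbp7: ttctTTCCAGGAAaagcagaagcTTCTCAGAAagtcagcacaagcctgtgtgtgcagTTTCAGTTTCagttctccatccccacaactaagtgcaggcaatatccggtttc
Igtp: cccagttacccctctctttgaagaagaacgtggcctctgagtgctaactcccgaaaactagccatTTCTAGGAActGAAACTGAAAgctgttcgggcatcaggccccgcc
Irgm2: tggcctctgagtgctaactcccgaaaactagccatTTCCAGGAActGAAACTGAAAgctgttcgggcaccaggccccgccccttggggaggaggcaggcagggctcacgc
Irgm1: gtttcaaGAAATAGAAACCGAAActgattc
Tgtp1: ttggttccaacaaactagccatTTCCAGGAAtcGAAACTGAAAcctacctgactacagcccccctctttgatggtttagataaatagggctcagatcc
Tgtp2: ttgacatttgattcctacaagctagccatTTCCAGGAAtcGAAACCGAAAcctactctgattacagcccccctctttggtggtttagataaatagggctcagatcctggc

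The IRF-type block occurred in all 6 of these member promoters, against 3.44% of 32851 RefSeq promoter windows of the same length. With the other family genes, 12 of 15 promoters held it. The GAS-type block was found in 3 of the 6 members, Gbp7, Igtp and Irgm2, and in 7 of the 15 family promoters, against 8.30% of all windows. Both blocks together occurred in the same 3 members and in 7 family genes, and in 0.454% of all windows. Igtp and Irgm2 share a layout in which the first base of the IRF-type block lies 11 bases after the first base of the GAS-type block. This spacing was picked out after the promoters had been read. It occurs in 5 of the 32851 windows (0.0152%), which belong to Igtp, Irgm2, Tgtp1, Tgtp2 and Gm12185, all on chromosome 11. Around the blocks, the printed stretch of Igtp nearly matches that of Irgm2, and that of Tgtp1 nearly matches that of Tgtp2. Gm12185 shares exonic bases with Tgtp1. The 5 windows therefore cannot be counted as separate occurrences. Gbp2, Gbp3 and Irgm1 held the IRF-type block alone. These matches describe letters and are not measurements of binding.

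**Figure D1:**
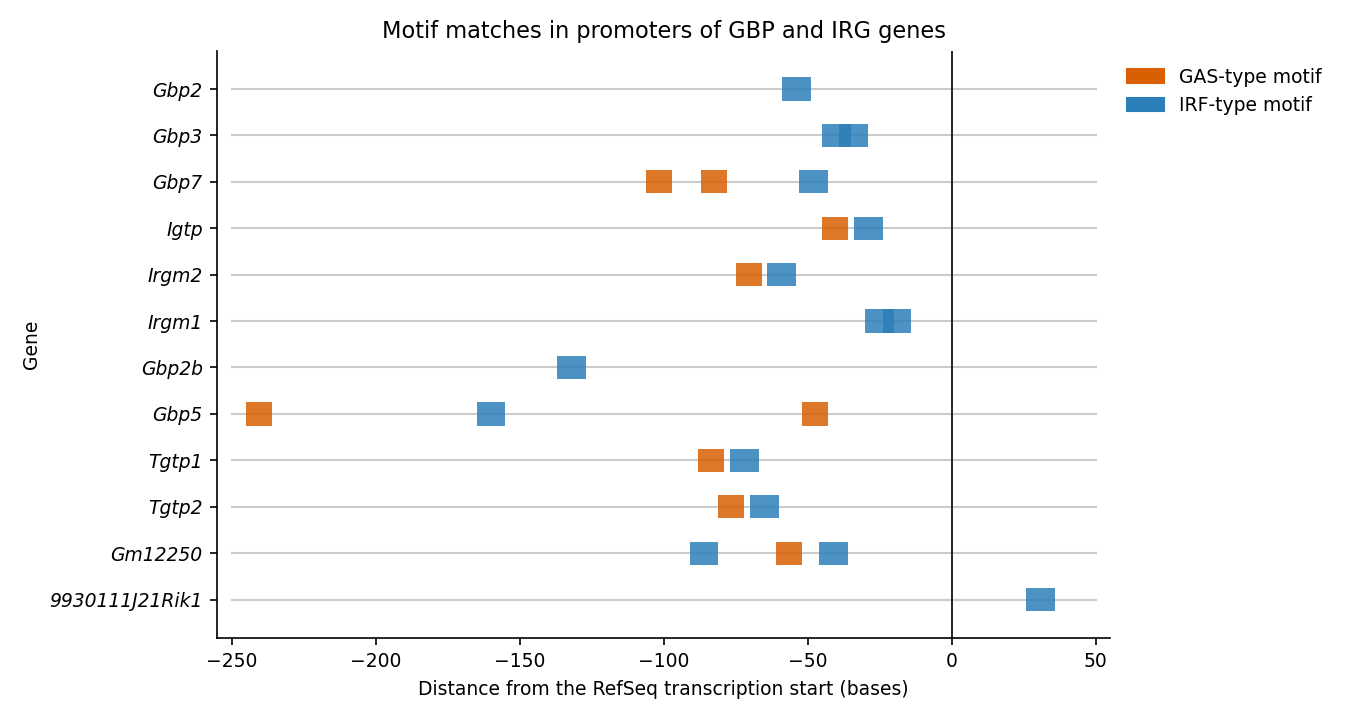
Positions of GAS-type (orange) and IRF-type (blue) blocks in the RefSeq promoter windows of the 12 GBP and IRG genes with a match, as distance in bases from the transcription start (vertical line). Igtp, Irgm2, Tgtp1 and Tgtp2 have the blocks side by side with the same spacing, 11 bases from first base to first base.

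The GBP members of chromosome 3 were higher in TKO libraries than in any other library. Gbp2 (ENSMUSG00000028270.12, chr3:142620602-142638008, plus strand) encodes a prenylated GBP that coats the vacuoles of bacteria and parasites. It measured 14.0, 26.7 and 22.9 CPM in WT replicates 1, 2 and 3, 6.10 and 13.9 in δKO replicates 1 and 2, 8.88 in the unnumbered δKO library, and 28.7, 39.5 and 33.0 in TKO. The groups did not overlap, with δKO lowest, WT between and TKO highest. Its log2 fold change was 1.80 (standard error 0.455) in TKO against δKO and 0.67 (standard error 0.443) in TKO against WT. Gbp2 was also the one member for which every δKO library lay below every WT library, and its log2 fold change was −1.14 with a standard error of 0.447 (Benjamini-Hochberg adjusted p = 0.699 in edgeR's quasi-likelihood test). All 3 δKO libraries lay below all 3 WT libraries for 7.39% of the 18205 genes.

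Gbp3 (ENSMUSG00000028268.14, chr3:142560026-142573209, plus strand) encodes another GBP of the same gene cluster. It measured 23.6, 17.9 and 26.6 CPM in WT, 16.1, 19.3 and 13.3 in δKO and 38.5, 49.8 and 35.2 in TKO. TKO libraries were highest, whereas WT and δKO overlapped. Gbp3 was 2.53-fold higher in TKO than in δKO cells (log2 fold change 1.34, standard error 0.364) and 1.81-fold higher than in WT (0.86, standard error 0.360).

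Gbp7 (ENSMUSG00000040253.15, chr3:142530342-142550149, plus strand), a GBP known to bring NADPH oxidase to bacterial vacuoles, had the smallest spread of TKO libraries among the members relative to its mean (81.3 ± 4.31 CPM, SD, n = 3). It measured 40.2, 64.4 and 38.3 CPM in WT, 54.0, 56.7 and 65.8 in δKO and 79.5, 86.3 and 78.2 in TKO. TKO lay above both other groups, and δKO lay within or just above the range of WT. The log2 fold change was 0.77 (standard error 0.283) against WT and 0.47 (standard error 0.282) against δKO. Of its exonic bases 11.3% are shared with the overlapping gene Gm43802, so part of its reads may have been counted elsewhere.

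**Figure D2:**
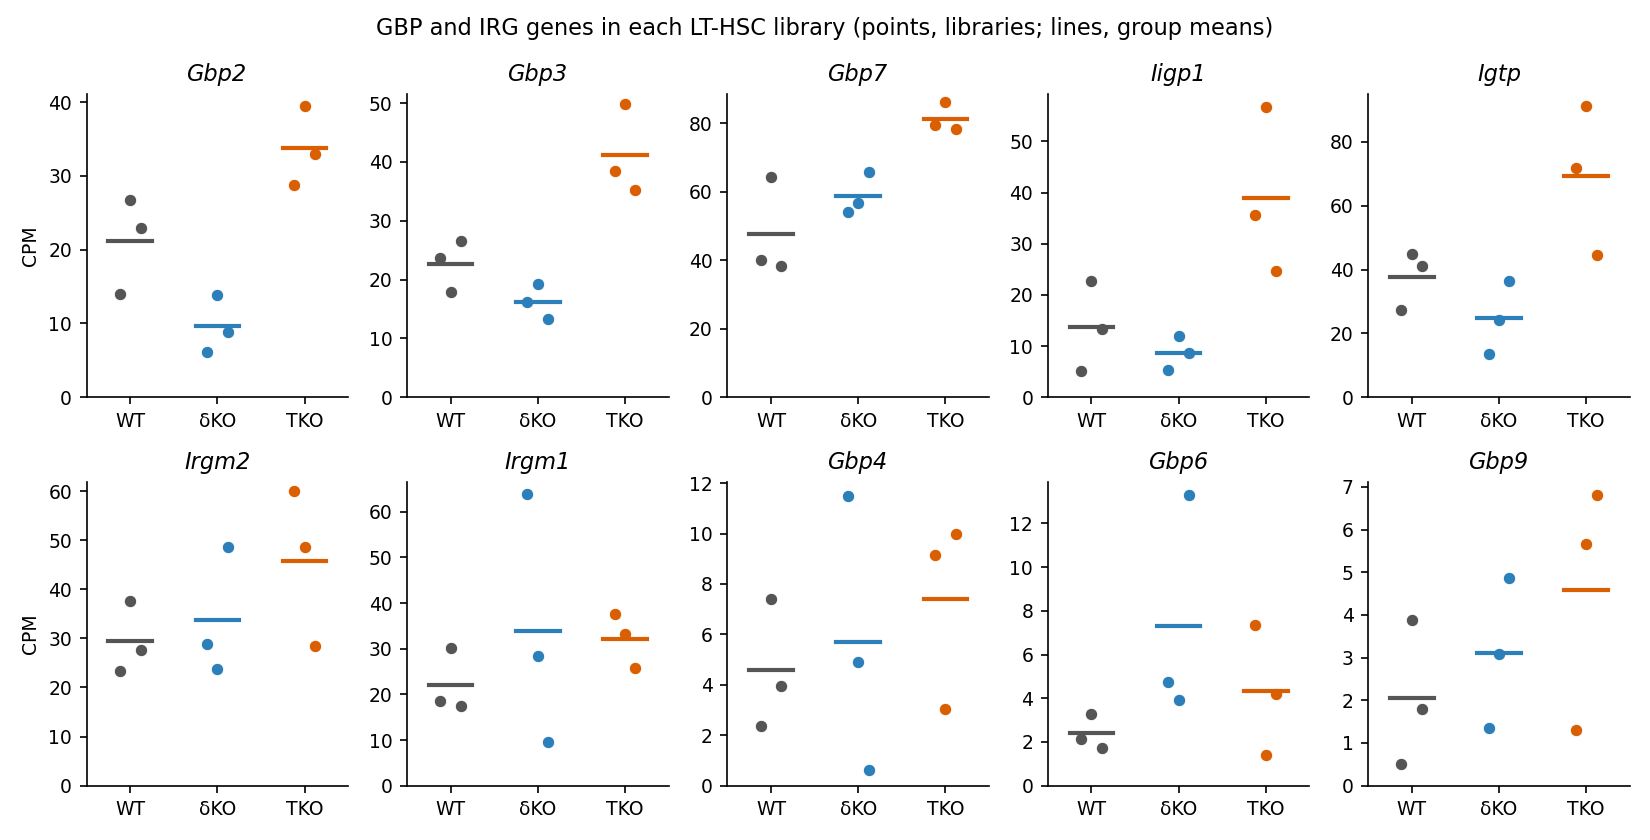
CPM of the 10 GBP and IRG members in each LT-HSC library, on linear axes that start at 0 and differ between panels (points, 3 libraries per genotype; lines, group means). In Gbp2, Gbp3, Gbp7 and Iigp1 the 3 TKO points lie above the 6 others, and Irgm1 and Gbp4 have their widest spread in δKO.

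Among the IRGs, every TKO library stood above the 6 others for the effector Iigp1 and for none of the 3 regulators. Iigp1 (ENSMUSG00000054072.11, chr18:60376027-60392634, plus strand) measured 5.06, 22.7 and 13.4 CPM in WT, 5.39, 12 and 8.66 in δKO and 35.6, 56.8 and 24.6 in TKO. The lowest TKO library was just above the highest WT library. Iigp1 had the largest difference of the members in TKO, 4.48-fold against δKO (log2 fold change 2.16, standard error 0.601) and 2.85-fold against WT (1.51, standard error 0.588).

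Igtp (Irgm3; ENSMUSG00000078853.8, chr11:58199556-58207591, plus strand) keeps effector IRGs off lipid droplets and endoplasmic reticulum. It measured 27.4, 44.9 and 41.0 CPM in WT, 13.6, 24.1 and 36.3 in δKO and 71.7, 91.3 and 44.7 in TKO. TKO was apart from δKO, but TKO replicate 3 lay a fraction below WT replicate 2. The log2 fold change was 1.49 (standard error 0.420) against δKO and 0.87 (standard error 0.414) against WT.

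Irgm2 (ENSMUSG00000069874.7, chr11:58199618-58222782, plus strand), the regulator found on Golgi membranes, shares 162 exonic bases with Igtp, which are 8.01% of the exonic bases of Igtp and 4.39% of those of Irgm2. It measured 23.3, 37.6 and 27.6 CPM in WT, 28.9, 23.8 and 48.5 in δKO and 60, 48.5 and 28.5 in TKO, and all 3 groups overlapped. Its log2 fold change was 0.44 (standard error 0.400) against δKO and 0.63 (standard error 0.401) against WT.

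Irgm1 (ENSMUSG00000046879.6, chr11:48861968-48871683, minus strand), the regulator required by HSCs, did not differ between TKO and δKO beyond the spread of the libraries. It measured 18.5, 30.2 and 17.5 CPM in WT, 63.8, 28.3 and 9.51 in δKO and 37.7, 33.2 and 25.8 in TKO. The δKO libraries held both the highest and the lowest value of the 9. Its log2 fold change was −0.071 (standard error 0.565, unadjusted 95% interval −1.31 to 1.17) against δKO and 0.55 (standard error 0.567) against WT. The sign against δKO changed to 0.77 without δKO replicate 1.

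The 3 GBP members of chromosome 5 were scarce, at 0.504 to 13.3 CPM, and overlapped between TKO and each control. They belong to a tandem cluster of similar genes, so that reads of one copy can be counted on another. Gbp4 (ENSMUSG00000079363.7, chr5:105115767-105139586, minus strand) measured 2.35, 7.42 and 3.96 CPM in WT, 11.5, 4.92 and 0.627 in δKO and 9.14, 3.05 and 9.98 in TKO. As with Irgm1, its highest and lowest values were both in δKO, in replicate 1 and in the unnumbered library.

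Gbp6 (ENSMUSG00000104713.4, chr5:105270702-105293698, minus strand), of whose exonic bases 29.0% are shared with Gm43302, measured 2.15, 3.28 and 1.74 CPM in WT, 4.75, 3.92 and 13.3 in δKO and 7.34, 1.42 and 4.20 in TKO. It was the one member for which every δKO library exceeded every WT library (log2 fold change 1.61 with a standard error of 0.869, edgeR quasi-likelihood adjusted p = 0.706), an order found for 4.13% of all genes. Gbp9 (ENSMUSG00000029298.15, chr5:105077630-105139539, minus strand) measured 0.504, 3.89 and 1.79 CPM in WT, 1.36, 3.08 and 4.87 in δKO and 1.30, 5.67 and 6.80 in TKO. Against δKO, the TKO log2 fold change was 0.38 (standard error 0.963) for Gbp4, −0.76 (0.853) for Gbp6 and 0.56 (1.02) for Gbp9, so none of the 3 differences was as large as its standard error.

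To compare levels between genes, CPM was divided by the exon length in kb. Igtp was the most abundant member in every genotype, with 34.3 ± 11.6 CPM per kb in TKO, 18.7 ± 4.54 in WT and 12.2 ± 5.6 in δKO (SD, n = 3). Its SD range lay above that of the next member, Gbp7, in WT and TKO and overlapped it in δKO. Gbp7, Gbp2, Irgm2 and Gbp3 came next in WT, at 8.48 ± 2.60, 8.43 ± 2.60, 8 ± 1.99 and 6.95 ± 1.36 CPM per kb, and did not differ among themselves beyond their SDs. In TKO the same 4 genes held these places at 12.4 to 14.5 CPM per kb, again with overlapping SD ranges. Irgm1 and Iigp1 followed in WT (3.80 ± 1.22 and 2.35 ± 1.51 CPM per kb), and in TKO their order was turned (5.55 ± 1.03 and 6.70 ± 2.81 CPM per kb), within their SDs both times. The place of Gbp2 differed in δKO, where at 3.83 ± 1.58 CPM per kb it stood below Irgm2, Irgm1 and Gbp3. Gbp4, Gbp6 and Gbp9 had the lowest means in each genotype, 0.398 to 1.23 CPM per kb. Ifi47, a related IRG that is not a member, exceeded all of them in WT at 39.6 CPM per kb.

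Seen over the members together, TKO libraries were the highest and were alike. The mean over the 10 genes of log2 CPM, centered for each gene on the 9 libraries, was 0.58 ± 0.057 in TKO, −0.29 ± 0.10 in δKO and −0.28 ± 0.53 in WT (SD, n = 3). Of the 10 members, 9, 8 and 8 were above their own mean in TKO replicates 1, 2 and 3. WT libraries were the most spread, since 0 members were above their mean in WT replicate 1, 8 in WT replicate 2 and 3 in WT replicate 3. In the δKO libraries 3 to 4 members were. The WT replicate 2 value, 0.25, was the nearest to the TKO range of 0.51 to 0.62. Because the members were chosen with these values known, the gap of TKO from the other groups follows from the choice in part and carries no test.

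For TKO against δKO, the contrast in view when the genes were picked, 8 of 10 members had a positive log2 fold change, with a median of 0.52 against −0.055 over all 18205 genes. edgeR's quasi-likelihood test called 0 of the 10 (adjusted p 0.465 to 0.977), as it called 0 of all genes (0%). An unadjusted p under 0.05 was found for 4 members, Gbp2, Gbp3, Igtp and Iigp1, and for 10.2% of all genes. DESeq2 on the same libraries called Gbp2 (adjusted p = 0.0055), Gbp3 (adjusted p = 0.00999) and Iigp1 (adjusted p = 0.0226), 3 of 10, and called 1.80% of all genes, while Igtp was at an adjusted p of 0.0514. All 3 TKO libraries lay above all 3 δKO libraries for 5 members, Gbp2, Gbp3, Gbp7, Igtp and Iigp1, and for 6.98% of all genes. Nothing is read from these counts, since this contrast was known when the genes were named. Without δKO replicate 1 and the unnumbered library, those with the fewest detected genes, the median was 0.77 and 0 members were called. The median was 0.98 without δKO replicate 1 and 0.92 without the unnumbered library.

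The WT libraries set TKO cells beside cells with intact PI3K genes that carried the same Cre. The same TKO libraries stand in this comparison and their values were known when the genes were named, so its counts, too, are given with nothing read from them. All 10 members had a positive log2 fold change in TKO against WT, 0.55 to 1.51, with a median of 0.81 against 0.017 over all genes. edgeR's quasi-likelihood test called 0 of the 10 members (all at an adjusted p of 1.00) and 1 of 18205 genes (0.00549%). Gbp3, Gbp7 and Iigp1, 3 of 10, had an unadjusted p under 0.05, as did 4.19% of all genes. DESeq2 called 0 members and 0.330% of all genes. All 3 TKO libraries exceeded all 3 WT libraries for 4 members, Gbp2, Gbp3, Gbp7 and Iigp1, an order seen for 6.88% of all genes. The same 4 members had every TKO library above all 6 others, which 2.12% of all genes did, and 0 of the 12 other GBP and IRG genes did. By position, these were all 3 members of chromosome 3, 0 of 3 on chromosome 5, 0 of 3 on chromosome 11 and the 1 member of chromosome 18. The order did not hold for the whole chromosome 3 cluster. Gbp5, which lies there and is not a member, had 28.1 CPM in the unnumbered δKO library and 26.4 in TKO replicate 3.

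Between δKO and WT, which differ by Pik3cd, by the floxed Pik3ca and Pik3cb alleles and by the presence of Cre, the members did not move one way. The log2 fold change was positive for 6 members and negative for 4, from −1.14 for Gbp2 to 1.61 for Gbp6, with a median of 0.25 against 0.046 over all genes. edgeR called 0 members (adjusted p 0.699 to 0.969, quasi-likelihood test) and 1 gene in all (0.00549%). One member, Gbp2, had an unadjusted p under 0.05, against 7.01% of all genes, and DESeq2 called 0 members and 0.423% of all genes. The 4 members lower in δKO than in WT by the mean, Gbp2, Gbp3, Igtp and Iigp1, are also those with the largest differences between TKO and δKO. The δKO libraries stand in both contrasts, so a low δKO value enters both. The median in δKO against WT turned to −0.27 without δKO replicate 1 and to −0.027 without the unnumbered library.

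**Figure D3:**
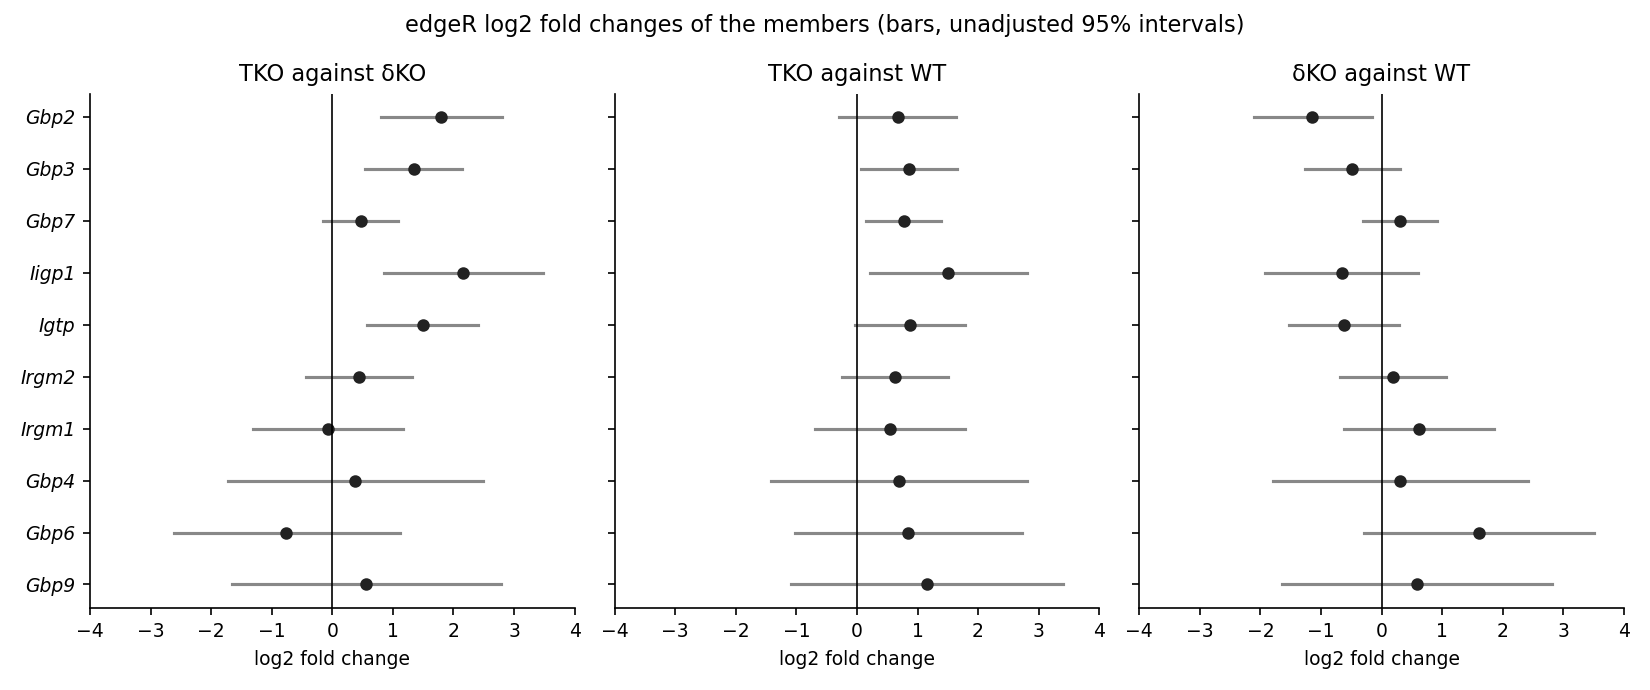
edgeR log2 fold changes of the 10 members in 3 comparisons (points) with unadjusted 95% intervals (bars, from the quasi-likelihood fit to all 9 libraries; vertical line, no difference). Against WT all 10 points lie right of 0, from 0.55 to 1.51, while in δKO against WT 4 lie left of it.

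The members did not share one pattern over the libraries. Across the 9 libraries, the 45 pairs of members had Pearson correlations of log2 CPM from −0.49 to 0.89, with a median of 0.30, and 33 were positive. These are descriptions over libraries that include the groups by which the genes were known. Gbp2, Gbp3, Igtp and Iigp1 formed 6 pairs with r from 0.75 to 0.89. They are the 4 members with an unadjusted edgeR p under 0.05 in TKO against δKO, so a shared group difference enters these correlations. Gbp4 and Irgm1, on different chromosomes, had r = 0.84 and followed each other in δKO, where both were highest in replicate 1 and lowest in the unnumbered library. Gbp6 was negatively correlated with Gbp3 (r = −0.49) and Gbp2 (r = −0.46).

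Irf1, a transcription factor of the interferon-γ response, had the same order within δKO as Irgm1. Irf1 measured 97.3 CPM in δKO replicate 1, 34.9 in replicate 2 and 8.15 in the unnumbered library. It measured 33.8, 37.0 and 48.0 CPM in WT and 60.8, 73.8 and 52.7 in TKO, so TKO exceeded WT in every library while δKO spanned both groups. The difference of TKO from WT on the log2 scale was 0.66 (standard error 0.626) for Irf1, which was not called.

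The other 15 GBP and IRG genes of the table show how far the members stand for their families. Gbp2b, Gbp10 and Irgc1 had at most 46 counts in any library and were not analyzed. edgeR called 0 of the other 3 GBP and 9 IRG genes in each comparison, and DESeq2 called 0 of them too. An unadjusted p under 0.05 was found for 1 of these 12 genes, Gbp5, in TKO against WT and for 0 in TKO against δKO, beside 4.19% and 10.2% of all genes, so the 12 genes did not stand out by this count. By direction, all 9 IRG genes were higher in TKO than in WT (median log2 fold change 0.62), as were 2 of the 3 GBP genes (median 0.42). Over all genes 9317 of 18205 were higher, with a median of 0.017. A positive sign against WT was thus not particular to the members. Against δKO, 6 of the 9 IRG genes (median 0.21) and 2 of the 3 GBP genes (median 1.20) were positive. Gbp5 lies on chromosome 3, as do Gbp2, Gbp3 and Gbp7, and promotes inflammasome assembly. It measured 14.4, 14.8 and 10.7 CPM in WT, 5.11, 11.7 and 28.1 in δKO and 49.3, 30 and 26.4 in TKO. It lay above WT in every TKO library (log2 fold change 1.40, standard error 0.579), but the unnumbered δKO library fell among the TKO values. Tgtp1, an effector IRG with the same promoter layout as Igtp, measured 4.12, 13.4 and 6.35 CPM in WT, 7.86, 7.53 and 3.39 in δKO and 10.1, 16.2 and 15.8 in TKO. TKO was apart from δKO (log2 fold change 1.16, standard error 0.644) and overlapped WT. Tgtp1 and Tgtp2 are near-identical copies between which reads may be split, and Tgtp2 had log2 fold changes of 0.19 (standard error 0.526) against δKO and 0.62 (standard error 0.528) against WT.

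Ifi47 (Irgd), the most abundant IRG per kb, overlapped between all groups, with 111 ± 32.6 CPM in TKO, 97.9 ± 25.3 in WT and 88.3 ± 30 in δKO (SD, n = 3). Gm12250, which the annotation lists as a processed pseudogene and which corresponds to Irgb10, averaged 5.04 ± 1.57 CPM in TKO, 4.75 ± 1.71 in WT and 7.71 ± 5.69 in δKO. Tgtp2, Gm4951, 9930111J21Rik2, Gm12250 and F830016B08Rik had their highest value of all 9 libraries in δKO replicate 1, at 41.6, 33.9, 33.3, 13.8 and 10.6 CPM, as did Irgm1 and Gbp4. In the same library Gbp2, Igtp, Gbp5 and Gbp8 had their lowest value, so the families split within that library. 9930111J21Rik1, a close relative of 9930111J21Rik2, was at 0.0798 CPM in δKO replicate 1, 9.03 in replicate 2 and 0.258 in the unnumbered library, and at 3.34 to 14.3 CPM in the WT and TKO libraries. Gbp8 and Gbp11 were low, with means of at most 3.91 and 0.643 CPM in any group. Irgq, a family member that interferon does not induce, averaged 46.0 ± 27.0 CPM in TKO, 26.1 ± 3.90 in WT and 52.9 ± 36.7 in δKO.

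**Figure D4:**
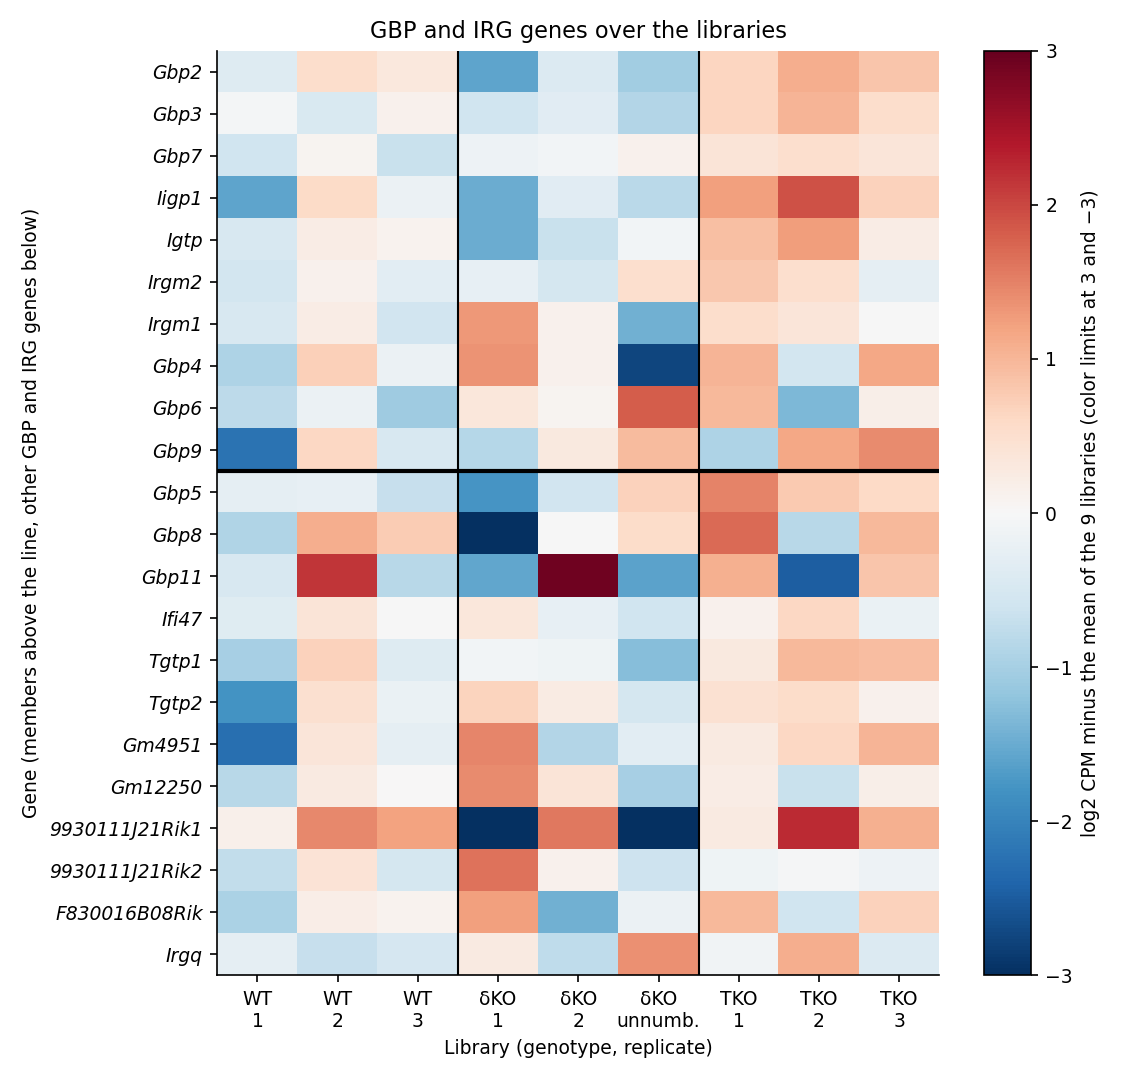
Log2 CPM of the 10 members (above the line) and the 12 other GBP and IRG genes analyzed (below), each centered on its mean over the 9 libraries (columns; red, above the mean; blue, below; color limits at 3 and −3). Gbp2, Gbp3, Gbp7 and Iigp1 are red in all 3 TKO columns, and δKO replicate 1 is blue for Gbp2, Iigp1 and Igtp but red for Irgm1 and Gbp4.

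Of 7 interferon genes looked up, 1 had enough counts to be analyzed. Ifng had 0 counts in all 9 libraries, where a count of 0 allows up to 0.0497 to 0.0958 CPM depending on depth and covers counting error only. Ifnb1, Ifna2, Ifna4 and Ifnl3 also had 0 counts throughout, and Ifnl2 had 1 count in 1 library. Ifnk, a type I interferon, was that gene and had 0 to 62 counts, with means of 0.225 to 0.497 CPM. The libraries are of sorted cells, so interferon made by other cells was not measured.

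Receptors, kinases and transcription factors of the interferon pathway made up a list of 16 genes, and 0 were called by edgeR in any comparison. Their median log2 fold change was 0.09 in TKO against δKO and 0.043 against WT. DESeq2 called 1 of them, Batf2, in TKO against δKO (adjusted p = 0.035), and edgeR's unadjusted p was under 0.05 for 1 of the 16 there and 0 against WT (all genes, 10.2% and 4.19%). Batf2, an interferon-γ-induced transcription factor, measured 3.14, 5.73 and 3.44 CPM in WT, 3.07, 3.53 and 0.811 in δKO and 17.7, 17.3 and 5.32 in TKO, where replicate 3 fell within the WT range. Ifngr1, the ligand-binding chain of the interferon-γ receptor, was at 230, 107 and 88.7 CPM in WT and lower in each TKO library, at 19.2, 79.4 and 41.1 CPM. In δKO it spread from 8.70 to 272 CPM, and the difference of TKO from WT was −1.61 on the log2 scale (standard error 0.874). Ifngr2, the second receptor chain, averaged 14.6 ± 2.60 CPM in TKO, 15.1 ± 2.60 in WT and 16.6 ± 12.3 in δKO (SD, n = 3).

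Irf2, which binds the same sites as Irf1 and opposes it, had every TKO library (75.4 to 92.8 CPM) above every other library (46.0 to 69.7 CPM), with log2 fold changes of 0.50 (standard error 0.276) and 0.54 (standard error 0.276) against δKO and WT. Stat2, a transcription factor of type I interferon signaling, was at 33.6 ± 5.44 CPM in TKO, 52.0 ± 16.4 in δKO and 42.0 ± 8.41 in WT. Of 8 feedback inhibitors, 0 were called by edgeR or DESeq2 in any comparison, and 1, Usp18, had an unadjusted p under 0.05 in TKO against δKO, as did 10.2% of all genes. Usp18, which blocks the type I receptor, measured 2.47, 11.2 and 8.99 CPM in TKO, 0.439, 2.74 and 0.295 in δKO and 0.571, 2.81 and 5.21 in WT. Socs1, the main brake on interferon-γ signaling, was scarce, with 1.59 ± 1.93 CPM in TKO, 2.62 ± 1.92 in WT and 1.39 ± 1.40 in δKO. Pias1 (92.4 ± 9.31 CPM in TKO, 136 ± 74.1 in δKO, 84.0 ± 13.4 in WT) and Ptpn1 (51.9 ± 8.54, 71.0 ± 19.5 and 60 ± 15 CPM), inhibitors of cytokine signaling, overlapped between the groups.

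Of the other interferon-induced genes, Cd74 had the pattern of the chromosome 3 members. Of 11 antigen-processing genes induced by interferon-γ, 0 were called by edgeR in any comparison and the medians were 0.13 against δKO and 0.11 against WT. edgeR's unadjusted p was under 0.05 for 1 of the 11 against δKO and 1 against WT, beside 10.2% and 4.19% of all genes. Cd74, the invariant chain of MHC class II, was the exception by DESeq2 (adjusted p = 0.00692 in TKO against δKO), which called 1.80% of all genes there. It had every TKO library (111, 102 and 74.3 CPM) above every WT (52.6, 58.7 and 60.1) and δKO library (32.4, 38.1 and 49.6). This order was seen for 2.12% of all genes. B2m, the light chain of MHC class I, averaged 1337 ± 286 CPM in TKO, 1407 ± 98.3 in WT and 1143 ± 107 in δKO (SD, n = 3), and Psmb10, an immunoproteasome subunit, averaged 28.5 ± 9.22, 21 ± 3.04 and 20.9 ± 6.53 CPM in the same order.

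Of 20 antiviral genes induced by type I interferon, 0 were called by either tool in any comparison. The median log2 fold change was 0.79 in TKO against δKO, where 14 were positive, and 0.40 against WT, where 15 were. An unadjusted p under 0.05 was found for 3 higher and 1 lower of the 20 genes in TKO against δKO and for 1 higher gene against WT, beside 10.2% and 4.19% of all genes. The gene against WT was Oasl2, an OAS-like antiviral protein, which was also among the 3 against δKO and is named after its values were seen. It measured 82.5, 137 and 85 CPM in TKO, 49.1, 56.8 and 63.5 in WT and 84.3, 51.5 and 29.1 in δKO, so TKO lay above WT and overlapped δKO. Isg15, the ubiquitin-like modifier, owed its TKO mean to 1 library, at 1.22, 26.7 and 3.22 CPM, against 2.27 to 3.39 in WT and 0 to 2.07 in δKO. Ddx58, the RNA sensor RIG-I, was at 47.7, 86.7 and 59.4 CPM in TKO and 31.4 to 39.7 in δKO, but overlapped WT (41.5 to 56.4 CPM). Cmpk2, a mitochondrial nucleotide kinase, went the other way, at 8.11 to 10.8 CPM in TKO, 11.4 to 64.2 in δKO and 10.3 to 40.9 in WT.

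The Atg8 system and the effectors that act with the GTPases had 1 gene apart from both controls in the list of the former, Atg12. Of 11 genes for Atg8 conjugation and Atg8 proteins, 0 were called by either tool, and the medians were 0.023 against δKO and −0.15 against WT. Atg12, a ubiquitin-like protein of the conjugation machinery, had all 3 TKO libraries (11.2, 8.25 and 12.2 CPM) below the 6 others (18.5 to 26.9 CPM), with log2 fold changes of −1.02 (standard error 0.399) against δKO and −1.23 (standard error 0.400) against WT. In this list edgeR's unadjusted p was under 0.05 for Atg12 alone against δKO, and against WT for Atg12 and, in the other direction, Gabarapl1, beside 10.2% and 4.19% of all genes. Gabarapl1, an Atg8 protein named after its values were seen, measured 155, 115 and 153 CPM in TKO, 102, 85.8 and 102 in WT and 153, 112 and 113 in δKO. Both TKO and δKO lay above WT, and they overlapped each other. Atg3, the conjugating enzyme, and Map1lc3a, an Atg8 protein, overlapped between groups. Atg3 averaged 39.1 ± 23.1 CPM in TKO, 60.4 ± 11.1 in δKO and 45.9 ± 3.64 in WT, and Map1lc3a averaged 5.65 ± 3.47, 1.92 ± 2.08 and 6.26 ± 2.81 CPM (SD, n = 3). In the list of 11 downstream effectors 0 were called by either tool, and the medians were −0.12 and −0.092. Nlrp3, an inflammasome sensor, was lower in each TKO library (0.708, 4.04 and 3.12 CPM) than in each WT library (25.8, 9.48 and 15.5 CPM), while δKO ran from 0.359 to 21.2 CPM. Casp4, the sensor of bacterial lipopolysaccharide, averaged 29.7 ± 12.3 CPM in TKO, 39.3 ± 8.96 in δKO and 36.3 ± 8.61 in WT, and Sqstm1 (p62) averaged 70.8 ± 22.4, 124 ± 106 and 75.4 ± 16.7 CPM.

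Other cells in the sort could bear on these levels, and in bulk samples fewer cells of a type and less RNA per cell cannot be told apart. All 10 HSC markers were detected in each genotype, with summed levels of 1199 to 1396 CPM in WT, 1159 to 2556 in δKO and 1625 to 2002 in TKO. The 10 neutrophil markers summed to 4941 to 11740 CPM in WT, 256 to 11460 in δKO and 152 to 2990 in TKO, and the 10 monocyte and macrophage markers to 466 to 1146, 144 to 501 and 166 to 702 CPM. C1qa was at 0 in δKO and TKO, and Fcgr1 and C1qb were at 0 in δKO. The sum of the T and NK cell markers was 80.7 to 232 CPM in WT, 3.99 to 195 in δKO and 25.7 to 70.8 in TKO, most of it Nkg7, and Cd3e and Cd8a were at 0 in all 9 libraries. B cell markers summed to 36.2 to 281 CPM in WT, 37.0 to 44.5 in δKO and 9.62 to 36.3 in TKO, with Ms4a1 at 0 in WT and TKO. Dendritic cell markers summed to 49.4 to 127, 26.3 to 72.6 and 36.5 to 53.7 CPM, with Batf3 at 0 in WT and TKO, and erythroid markers to 113 to 262, 154 to 247 and 84.8 to 195 CPM. Megakaryocyte markers summed to 213 to 675, 504 to 621 and 358 to 590 CPM, and endothelial and stromal markers to 73.2 to 85.5, 70.5 to 107 and 83.0 to 106 CPM. The neutrophil sum and the T and NK cell sum were lower in every TKO library than in every WT library, and the HSC sum was higher. Of the 10 neutrophil genes, S100a8, Ngp and Camp were also lower in every TKO library than in every WT library. S100a9, Ltf, Lcn2, Retnlg, Ly6g, Mpo and Elane each overlapped between TKO and WT. Mpo ranged from 59.9 to 1888 CPM in TKO and 1693 to 8958 in WT, and Elane from 16.7 to 569 and 532 to 2306 CPM. The part of these cells in the levels of the members was not tested.

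Genes outside these lists that ran most like the members were sought among 10775 genes whose mean level was 5 CPM or more, by the Pearson correlation over the 9 libraries with the mean centered log2 CPM of the members. The closest were Wdr19 (r = 0.95), 9330175E14Rik (r = 0.95), Rabep1 (r = 0.93), Ssh1 (r = 0.93) and Sema4b (r = 0.91). Without TKO replicates 1 and 2, the libraries farthest from the median, r was 0.91, 0.94, 0.90, 0.86 and 0.84. Wdr19 averaged 29.7 ± 6.27 CPM in TKO, 13.2 ± 5.69 in WT and 12.8 ± 1.91 in δKO (SD, n = 3), and Ssh1 averaged 42.0 ± 0.247, 20.9 ± 3.09 and 21 ± 1.23 CPM. These genes were taken as the highest of many, and the points share libraries and groups, so the correlations are descriptions.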

How the data were processed

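RNA-seq libraries of sorted LT-HSCs were grouped by genotype from the sample labels, 3 each for WT, δKO and TKO. According to the submitters' processing notes, reads were handled with Trim Galore 0.3.7, FastQC 0.11.4 and STAR 2.5.1b on mm10. The authors deposited raw counts per gene for 47643 genes, of which 19696 had no count, and a normalized signal, tested here to be the raw count divided by 1 factor per library in every library but the unnumbered δKO library. The remaining δKO column of the normalized signal has another number (replicate 3) and may not be the same library, which bears on the limma alternative alone. The annotation release and any use of strand in counting are not given in the sources used here. Coordinates are those of GENCODE M21, in which 47224 gene identifiers were found without version and 39106 with it.

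Analysis used R 4.3.3, edgeR 4.0.16, limma 3.58.1, DESeq2 1.42.0 and Python 3.11.15 with pandas 2.3.3 and matplotlib 3.10.9. Genes were kept with edgeR's filterByExpr (count minimum 10, total minimum 15), which left 18205. All 9 libraries entered 1 quasi-likelihood fit in edgeR with TMM factors, a mean for each genotype and no replicate block, which left 6 residual degrees of freedom. Tests were two-sided. A call required more than 2-fold and an adjusted p (Benjamini-Hochberg over all genes kept) under 0.05. The members and all gene lists were chosen with earlier results of these data known. The named genes are the members, every measured gene of the other GBP and IRG lists, up to 3 genes with the smallest unadjusted p in TKO against δKO from each other list, and Irf1, Ifngr1, Ifngr2, Socs1, Ifng and another gene, which is not reported here. Likeness used the 5 most correlated genes in no list. Motifs were searched on both strands of RefSeq windows of 300 bases. A prior count of 2 was used for log2 CPM. With 31300343 to 60386097 counts per library, the variation between libraries (common biological coefficient of variation 0.805) sets the precision.

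Alternatives were RLE and upper-quartile factors, no filter, at least 10 counts in every library, DESeq2 on all libraries or the groups compared, edgeR on the groups compared, a replicate block, a covariate for genes detected, limma on log2 of the deposited normalized values with 1 added, a call without the fold limit and each library left out. DESeq2 without the filter, and edgeR without the 2 δKO libraries with the fewest genes detected, were added after seeing the data. The pipeline was tested on simulated data.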

Additional observations from a re-analysis of the deposited data

How the results depend on the processing

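In TKO against WT all values of the 10 members kept their sign and stayed outside the threshold in 20 alternatives each, and 0 members were called in any. In TKO against δKO the number of members called rose from 0 to 3 with DESeq2 on all 9 libraries, to 2 with DESeq2 on the groups compared and to 4 with DESeq2 without the filter, which added Igtp (adjusted p = 0.0457). Over the alternatives the adjusted p ranged from 0.00219 to 0.946 for Gbp2, 0.00107 to 0.946 for Gbp3 and 0.0116 to 0.946 for Iigp1. Upper-quartile factors moved the median of all genes by 0.14 in TKO against δKO and by −0.15 in δKO against WT. The members' median log2 fold change ranged from 0.49 to 0.98 in TKO against δKO, from 0.68 to 1.03 in TKO against WT and from −0.27 to 0.50 in δKO against WT as each library was left out, and the number called stayed at 0. Over all genes, edgeR called 0, 1 and 1 in TKO against δKO, TKO against WT and δKO against WT, where DESeq2 called 190 higher and 138 lower, 37 and 23, and 44 and 33 on all 9 libraries, 80 and 43, 196 and 244, and 37 and 40 on the groups compared, and 343 and 194, 68 and 57, and 67 and 121 without the filter. edgeR on the groups compared called 8 higher and 1 lower in TKO against WT and 0 in δKO against WT. In δKO against WT that median was −0.089 with the replicate block, −0.015 with genes detected as a covariate, −0.052 with the deposited values in limma and −0.041 without the 2 δKO libraries with the fewest genes. Replicate numbers did not pair the libraries, since same-numbered ones had correlations of −0.0359 to 0.0829. With the block, in which the unnumbered δKO library stood alone and so dropped out, 0 members were called in each comparison.

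Signs turned for Irgm1, Gbp4, Gbp6 and Irgm2. In TKO against δKO, Irgm1 went from −0.071 to 0.11 with upper-quartile factors, 0.038 with at least 10 counts in every library, 0.13 with the covariate, 0.29 in limma, 0.19 without the 2 δKO libraries and as far as 0.77 (0.067 without TKO replicate 3; leave-out range −0.51 to 0.77). Gbp4 went from 0.38 to −0.24 with the block and −0.15 without the unnumbered library (leave-out range −0.15 to 1.41), and Gbp6 from −0.76 to 0.15 without the 2 δKO libraries. In δKO against WT, Gbp4 went from 0.31 to −0.28 in limma, −0.00087 without WT replicate 1 and −0.72 without δKO replicate 1 (range −0.72 to 0.85). Irgm1 went from 0.62 to −0.22 without δKO replicate 1 (range −0.22 to 1.06). Irgm2 went from 0.19 to −0.35 with the block, −0.29 with the covariate, −0.31 without the 2 δKO libraries and −0.16 without the unnumbered one (range −0.16 to 0.41). The cause was not tested. Genes at a few CPM, such as Gbp4, Gbp6 and Gbp9, had standard errors near 1 on the log2 scale, which bounds what these libraries can show for them.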
